A study of Sus scrofa domesticus with 4 samples.

Results

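The insulin-like growth factors (IGFs), their receptors and their binding proteins were followed in pig uterine muscle cultured with orexin B. The family was taken as 10 listed genes: the ligands IGF1 and IGF2, the receptors IGF1R and IGF2R, and the binding proteins IGFBP1 to IGFBP6. Members were found by matching each non-control probe's RefSeq mRNA to its pig gene, and every matching probe was used. This gave 19 probes for 9 of the 10 genes, out of 2971 named genes with 6599 probes (genes known only by a LOC number are not counted as named). IGFBP1 had no matching probe and was not analysed here. Of the 19 probes, 15 were bright enough to test, and they covered 8 genes: IGF1, IGF2, IGF1R and IGFBP2 to IGFBP6. The 4 probes of IGF2R did not pass the brightness filter.

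IGF1 and IGF2 are small secreted peptides related to insulin that act on cells through IGF1R, a receptor tyrosine kinase, and drive growth and survival. IGF2R, the cation-independent mannose 6-phosphate receptor, takes up IGF2 and carries it to lysosomes. The binding proteins hold the ligands in tissue fluid and blood, lengthen their lifetime and either restrain or deliver them, and proteases such as PAPP-A release the ligand by cutting the binding protein. In the uterus the system is known for its part in muscle and endometrial growth and in early pregnancy.

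The series compared orexin B, a peptide ligand of the orexin receptors, at 10 nM for 24 h with no treatment, in slices of myometrium. The slices came from 4 gilts (Large White x Polish Landrace, 7 to 8 months old, 120 to 130 kg) on days 15 to 16 of gestation, and all of them were first kept for 2 h in culture medium. RNA of an orexin B culture and an untreated culture was hybridised together on each of 4 Agilent arrays of 2 colours, numbered 1 to 4 as in the labels. The labels say that cultures were made in duplicate in 4 separate experiments; they do not say which gilt each array holds. Orexin B RNA carried the red dye Cy5 on arrays 1 and 3 and the green dye Cy3 on arrays 2 and 4, so animals and dye orientation cannot be told apart when those pairs of arrays differ. By the file headers, arrays 2 to 4 shared a slide and a scan day, while array 1 was on another slide scanned on another day. Where array 1 differs from the rest, culture, slide and scan day cannot be told apart.

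Between 48.7% and 54.3% of probes were well above background in the orexin B channel and between 37.6% and 58.2% in the untreated channel, and 19879 of 43603 probes were tested. The number of arrays limits the precision, and the p-values reflect only differences between these 4 arrays. In the moderated test each probe's variance was also drawn towards that of all tested probes. As a check of the tissue label, all 7 smooth muscle markers with a probe (ACTA2, CNN1, DES, MYL9, MYLK, SMTN and TPM2) passed the brightness filter. So did 8 of 8 macrophage markers with a probe, 4 of 4 of endothelium, 4 of 4 of fibroblasts and stroma, 3 of 4 of endometrial epithelium (EPCAM, KRT8 and SPP1), 2 of 6 of conceptus trophoblast (CYP19A1 and IL1B2) and 0 of 5 of T and NK cells. The filter thus did not set muscle markers apart from those of most other cell types. In bulk tissue, fewer cells of a type and less RNA per cell cannot be told apart.

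None of the 15 tested probes of the family differed between orexin B and untreated cultures beyond the spread between arrays. In limma's moderated test 0 of 15 passed an adjusted p of 0.05, and 0 of all 19879 probes did. At an unadjusted p under 0.05 the family again had 0 of 15 probes, where 7.72% of all tested probes reached it (4.31% higher and 3.41% lower with orexin B), and the smallest unadjusted p in the family was 0.120. Among the 14 family probes measured on 4 arrays, 0 had the same sign on all 4, against 16.1% of all such probes. The mean log2 ratios of orexin B over untreated ran from -0.44 for one probe of IGFBP6 to 0.28 for IGFBP5, with adjusted p between 0.725 and 0.993. With each gene represented by its brightest tested probe, 5 genes had a mean above 0 and 3 a mean below 0. The median log2 ratio of the 8 genes was 0.073, against 0.017 over 1959 named genes. IGFBP4, among the 5 above 0, passed the brightness filter through the orexin B channel only. When both channels had to be well above background on all 4 arrays, 7 genes remained, with a median of 0.066.

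The spread between arrays sets how small a change could be seen. The median standard error of the family's log2 ratios was 0.17, against 0.14 over all tested probes, and their median SD between arrays was 0.39, against 0.27. The narrowest interval was that of IGF1 and the widest that of IGFBP6. Over all 15 probes the 95% intervals reached as low as 0.478-fold and as high as 1.86-fold. These intervals use moderated errors. The standard error of the brighter IGFBP6 probe was 0.26 moderated and 0.37 unmoderated, and that of IGF1 was 0.12 and 0.072.

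**Figure D1:**
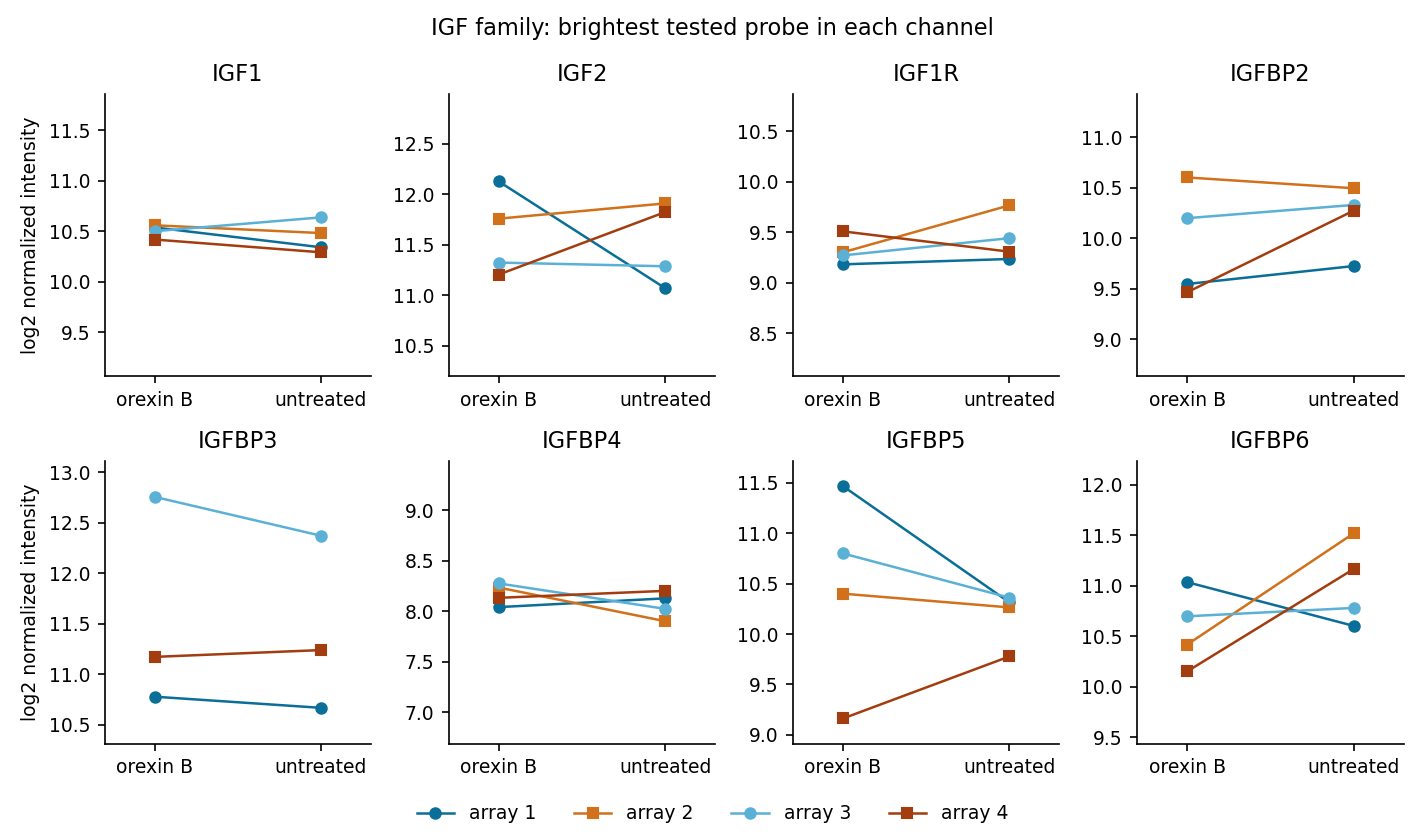
Log2 normalized intensity of the brightest tested probe of 8 IGF family genes in the orexin B and the untreated channel; each line joins the 2 channels of 1 array, and each panel spans the same height on its log2 axis (circles, orexin B in Cy5; squares, orexin B in Cy3). Lines cross within every panel but that of IGFBP3, which was measured on 3 arrays and where array 3 lies above the others in both channels.

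IGF1 differed least between the cultures, with a mean absolute log2 ratio of 0.134 over the arrays. Its probe (A_72_P232282, RefSeq NM_214256) had log2 intensities of 10.54, 10.56, 10.50 and 10.42 in orexin B cultures on arrays 1 to 4, against 10.34, 10.48, 10.64 and 10.29 in untreated cultures. The groups overlapped, and array 3 was the one on which the orexin B channel was the lower. The log2 ratios were 0.20, 0.077, -0.14 and 0.13, with a mean of 0.066 ± 0.12 (moderated standard error, 4 arrays; adjusted p = 0.912). The 95% interval of the fold change was 0.865 to 1.27.

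IGF2, the fetal-type ligand, was measured by 5 probes of the same mRNA (NM_213883). The brightest (A_72_P303139) had log2 intensities of 12.13, 11.76, 11.32 and 11.21 in orexin B cultures, against 11.07, 11.91, 11.29 and 11.82 in untreated cultures. The groups overlapped, with orexin B higher by about a log2 unit on array 1 and lower by 0.62 on array 4. Its mean log2 ratio was 0.081 ± 0.25 (adjusted p = 0.954), and the other 4 probes had means between -0.075 and -0.011. The mean of this probe turned negative without replicate 1 (-0.24) and was 0.31 without replicate 4. Averaged over the 5 probes, IGF2 had -0.018.

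The small means of IGF2 came from opposite values on different arrays. On array 1 all 5 probes were higher with orexin B, with log2 ratios from 0.35 to 1.06, and on array 3 all 5 were above 0, from 0.037 to 0.26. On array 2 all 5 were lower, from -0.66 to -0.15, and on array 4 all 5 were lower, from -0.66 to -0.32. The 5 probes share their target and are not independent, but they gave one pattern: above 0 where orexin B carried Cy5 and below 0 where it carried Cy3. Such a sign split by dye orientation was found in 5 of 14 family probes, all of IGF2, and in 18.3% of all probes measured on 4 arrays. With dye orientation as a further term in limma, the dye term of the IGF2 probes was between 0.32 and 0.56 on the log2 scale. It had an unadjusted p under 0.05 for all 5 IGF2 probes and for 7 of 15 family probes (12.5% of all probes), and passed an adjusted p of 0.05 for 0 of them (smallest adjusted p in the family 0.235). Taken as Cy5 over Cy3 on every array, the orientation that the protocol text names, 7 of 15 family probes were above 0 at an unadjusted p under 0.05 (the 5 of IGF2, IGFBP5 and the brighter of IGFBP6), where 8.33% of all probes reached it.

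IGF1R, the signalling receptor, had 2 tested probes of NM_214172. The brighter (A_72_P440946) had log2 intensities of 9.18, 9.30, 9.27 and 9.51 in orexin B cultures, against 9.23, 9.77, 9.44 and 9.31 in untreated cultures. Only array 4 was higher with orexin B, and the groups overlapped. The log2 ratios were -0.053, -0.46, -0.17 and 0.20, with a mean of -0.12 ± 0.14 (adjusted p = 0.859). The other probe (A_72_P146851) had -0.068 ± 0.17, and on it array 2 stood at -0.69 while the other arrays lay between 0.13 and 0.15. Both probes were thus lowest on array 2. Without replicate 2 they averaged -0.0076 and 0.14.

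IGF2R had 4 probes of NM_001244473, and no mean or test is given for them. In the orexin B channel they were well above background on 1 to 3 of the 4 arrays, and in the untreated channel on 1 or 2 of 4. On array 2 none of the 4 was well above background in the orexin B channel, and on arrays 1 and 3 none was in the untreated channel. Each of these was the Cy3 channel of its array, so this split followed the dye. On array 4 some of the probes were well above background in both channels. Their log2 ratios on single arrays ran from -0.46 to 0.20.

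IGFBP2 had 2 tested probes of NM_214003 that followed each other closely. The brighter (A_72_P634395) had log2 intensities of 9.55, 10.60, 10.20 and 9.47 in orexin B cultures, against 9.72, 10.50, 10.33 and 10.27 in untreated cultures. The orexin B culture on array 4 was lower than its untreated partner by 0.81, while the other arrays differed by no more than 0.18. The mean log2 ratio was -0.25 ± 0.17 (95% interval -0.64 to 0.14, adjusted p = 0.752), and that of the other probe was -0.28 ± 0.16 (adjusted p = 0.725). Both means rested largely on array 4 and were -0.067 and -0.11 without replicate 4. With Agilent's processed ratio the brighter probe had -0.37.

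IGFBP3, the main carrier of IGFs in blood, had 1 probe (A_72_P165666, NM_001005156), and its spot on array 2 was left out because the scanner software marked it as non-uniform. On arrays 1, 3 and 4 it had log2 intensities of 10.78, 12.76 and 11.17 in orexin B cultures, against 10.67, 12.37 and 11.24 in untreated cultures. Array 3 was far above the other arrays in both channels. The range over arrays was 1.98 in orexin B and 1.70 in untreated cultures, while no array's ratio exceeded 0.39. The log2 ratio had a mean of 0.14 ± 0.15 over 3 arrays (adjusted p = 0.847), 0.11 with the marked spot kept and 0.40 when arrays were only centred on their median. It was 0.022 without replicate 3.

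IGFBP4, which restrains IGF action and is a substrate of PAPP-A, was dim. Its probe (A_72_P441554, NM_001123129) had log2 intensities of 8.04, 8.24, 8.28 and 8.13 in orexin B cultures, against 8.13, 7.90, 8.02 and 8.20 in untreated cultures, and in untreated cultures it was well above background on 3 of 4 arrays. It was higher with orexin B on arrays 2 and 3 and close to its partner on arrays 1 and 4 (-0.087 and -0.069). The mean log2 ratio was 0.11 ± 0.13 (95% interval -0.19 to 0.41, adjusted p = 0.864).

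IGFBP5, a binding protein that also attaches to extracellular matrix, had the highest mean of the family and one of its widest spreads. Its probe (A_72_P146706, NM_214099) had log2 intensities of 11.46, 10.40, 10.80 and 9.16 in orexin B cultures, against 10.31, 10.26, 10.36 and 9.78 in untreated cultures. The orexin B cultures spanned 2.30 log2 units and the untreated cultures 0.58. The log2 ratios were 1.15, 0.14, 0.44 and -0.61, with a mean of 0.28 ± 0.26 (95% interval -0.34 to 0.89, adjusted p = 0.820). The mean was -0.013 without replicate 1. Without replicate 4 it was 0.57, with an unadjusted p of 0.0389 and an adjusted p of 1.00 in limma, where 3.65% of all probes reached an unadjusted p under 0.05. IGFBP5 and IGFBP2 neighbour each other in the Sscrofa11.1 gene table. The ratios of both were lowest on array 4, as were those of the brightest IGF2 probe (-0.62) and of IGFBP3 (-0.067). On arrays 1 and 3 IGFBP5 was above 0 and the brighter IGFBP2 probe below 0 (-0.18 and -0.13). On array 2 both were above 0.

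IGFBP6, which binds IGF2 in preference to IGF1, had the lowest mean of the family on one probe and little difference on the other, both of NM_001100190. The brighter (A_72_P088481) had log2 intensities of 11.04, 10.42, 10.70 and 10.15 in orexin B cultures, against 10.60, 11.52, 10.78 and 11.17 in untreated cultures. It was lower with orexin B by about a log2 unit on arrays 2 and 4, close to its partner on array 3 and higher on array 1. The log2 ratios were 0.43, -1.10, -0.083 and -1.01, with a mean of -0.44 ± 0.26 (95% interval -1.06 to 0.18, adjusted p = 0.734). The dimmer probe (A_72_P442649) had -0.17, -0.32, 0.24 and 0.0059, with a mean of -0.061 ± 0.13 (adjusted p = 0.930). The probes thus had opposite signs on arrays 1, 3 and 4, and the data do not settle which of them follows the transcript.

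The values of the brighter IGFBP6 probe moved with dye orientation, with the arrays kept and with the terms of the fit. Under other processing of the same arrays its mean log2 ratio was between -0.52 and -0.46. Its ratio averaged 0.18 over arrays 1 and 3 (orexin B RNA in Cy5) and -1.06 over arrays 2 and 4. With dye as a further term limma gave the same mean with a smaller standard error, -0.44 ± 0.13 (unadjusted p = 0.0118, adjusted p = 0.271), where 12% of all probes reached an unadjusted p under 0.05. Without replicate 1 it was -0.73 ± 0.23 (unadjusted p = 0.0184, adjusted p = 0.763), where 6.28% of all probes did, and without replicate 2 it was -0.22. With the slide as a random block, arrays 2 to 4 having shared a slide, it was -0.57 ± 0.20 (unadjusted p = 0.0216, adjusted p = 0.163), where 21.5% of all probes were under 0.05 unadjusted. That fit took arrays of the same slide as negatively correlated (-0.26), and its standard error lay below the 0.26 of the main fit.

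**Figure D2:**
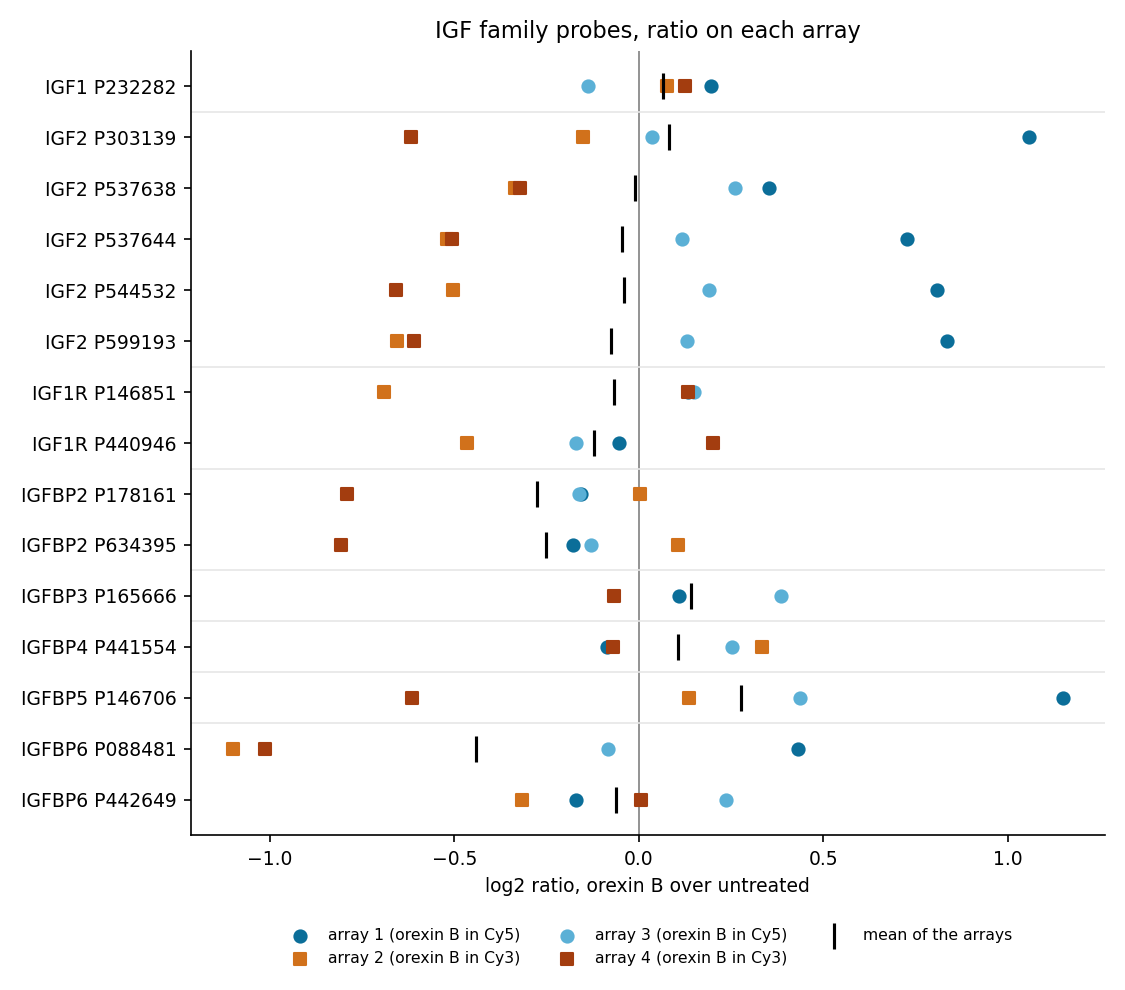
Log2 ratio of orexin B over untreated for the 15 tested IGF family probes on each array; circles mark orexin B RNA in Cy5, squares orexin B RNA in Cy3, and black ticks are means. The 5 IGF2 probes have both circles above 0 and both squares below 0, while IGF1 stays between -0.14 and 0.20.

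Among the brightest tested probes of the 8 genes, that of IGFBP6 had the largest mean absolute log2 ratio over the arrays, 0.66. The dimmer IGFBP6 probe, with opposite signs on arrays 1, 3 and 4, was left out here. Genes nearest to the brighter probe were sought among 1930 named genes outside the family. By the root mean square difference of the 4 array ratios these were TPM2 (beta-tropomyosin, 0.062), KLF4 (a zinc finger transcription factor, 0.19) and MYL9 (a regulatory light chain of smooth muscle myosin, 0.19). TPM2 had log2 ratios of 0.43, -1.15, -0.055 and -0.90 on arrays 1 to 4. Likeness over 4 arrays is a description of these arrays only.

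Like IGF2 and the brighter IGFBP6 probe, the medians of muscle and stroma markers were lower on arrays 2 and 4 than on arrays 1 and 3. Single markers could differ: MYLK (-0.91 and -0.42) and DCN (-0.59 and -0.42) were lower on array 1 than on array 2. Over all tested probes the ratios of arrays 2 and 4 had a Pearson correlation of 0.36. Arrays 1 and 3, the other pair of the same dye orientation, had 0.14, and pairs of opposite orientation had -0.18 to 0.14. The 7 smooth muscle markers had median log2 ratios of -0.0059, -1.15, 0.19 and -1.24 on arrays 1 to 4. All 7 had a mean below 0, with a median of -0.49, and 0 of them had an unadjusted p under 0.05, where 10.5% of named genes did (6.23% higher and 4.24% lower with orexin B). The log2 of their summed intensity, in which the brightest markers weigh most, ran from 18.00 to 19.46 in orexin B cultures. In untreated cultures it ran from 18.87 to 19.80. The 4 fibroblast and stroma markers with a probe (CD34, COL1A2, DCN and LUM) had medians of -0.016, -0.72, -0.0016 and -0.77. All 4 had a mean below 0, and 1 of them, DCN (decorin), had an unadjusted p under 0.05. The log2 of their summed intensity ran from 15.54 to 16.30 in orexin B cultures and from 16.22 to 16.30 in untreated cultures. On array 1 the 5 IGF2 probes (0.35 to 1.06) and the brighter IGFBP6 probe (0.43) lay above both list medians, while single markers there ran from -0.91 for MYLK to 0.43 for TPM2.

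Other cell type markers did not follow that order of arrays. The 8 macrophage markers had median log2 ratios of 0.69, 0.081, 0.90 and 0.77 on arrays 1 to 4. All 8 had a mean above 0, with a median of 0.61, and 7 of them had an unadjusted p under 0.05. The log2 of their summed intensity ran from 12.80 to 14.06 in orexin B cultures and from 12.07 to 13.31 in untreated cultures. The 4 endothelium markers had medians of 0.41, 0.19, 0.016 and 0.33, with 3 means above 0 and 2 of 4 at an unadjusted p under 0.05 (CDH5 and CLDN5, both higher). The log2 of their summed intensity ran from 13.20 to 14.05 in orexin B cultures and from 12.94 to 13.67 in untreated cultures. Of the 3 epithelium markers SPP1, and of the 2 trophoblast markers IL1B2, was higher at that threshold. None of these markers passed an adjusted p of 0.05. The part of tissue makeup in the values of the IGF family was not tested.

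**Figure D3:**
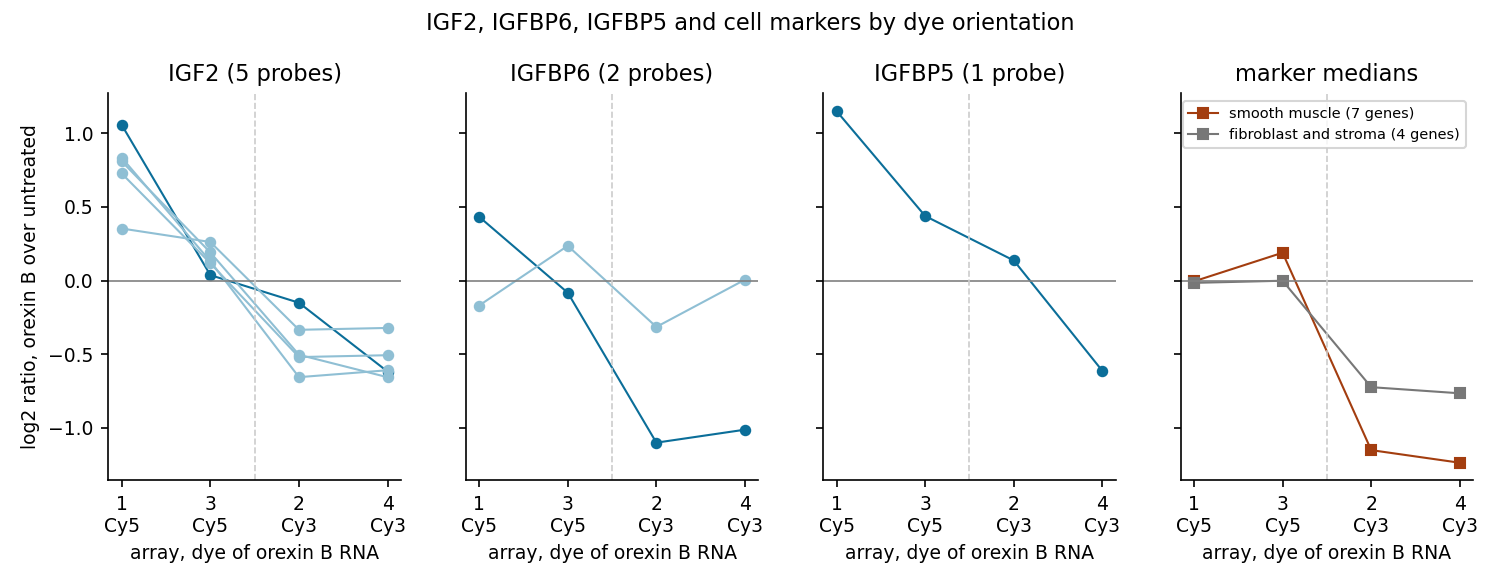
Log2 ratio of orexin B over untreated by array for the probes of IGF2, IGFBP6 and IGFBP5 (dark blue, brightest probe; light blue, other probes) and median ratio of 2 marker lists, with arrays grouped by the dye of orexin B RNA; lines join values of the same probe or list. IGF2, the brighter IGFBP6 probe and both marker lists are lower on arrays 2 and 4 than on arrays 1 and 3.

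The wider pathway was read from a list of 59 genes: other ligands and carriers, insulin-type signalling, and proteases and inhibitors that act on binding proteins. Probes matched 21 of them and 15 were tested. At an unadjusted p under 0.05 there was 1 gene higher and 0 lower, where 6.23% and 4.24% of the 1959 named genes were, and 0 passed an adjusted p of 0.05. The median log2 ratio was 0.0048, with 8 genes above 0 and 7 below. IRS1 (above 0) and STAT5A (below 0) passed the brightness filter through the orexin B channel only.

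The gene at the unadjusted threshold was STC1, stanniocalcin 1, a secreted glycoprotein that in human inhibits PAPP-A. Its probe had log2 intensities of 10.60, 13.10, 9.92 and 10.59 in orexin B cultures, against 9.82, 10.58, 9.13 and 10.08 in untreated cultures. Each orexin B culture was brighter than the untreated culture on its own array, although the groups overlapped. The log2 ratios were 0.78, 2.51, 0.79 and 0.52, with a mean of 1.15 ± 0.32 (2.22-fold, unadjusted p = 0.00828, adjusted p = 0.596). Array 2 gave the highest value. Without replicate 2 the mean was 0.69 (unadjusted p = 0.00147, adjusted p = 0.682 in limma), where 1435 of 19879 probes were under 0.05 unadjusted. An unmoderated one-sample test of the same 4 ratios gave an adjusted p of 0.812 and did not reach the unadjusted threshold.

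IGFBP7, a low-affinity relative of the binding proteins, had 3 tested probes with means from -0.33 to -0.25, and its brightest had array ratios of -0.41, -0.43, 0.49 and -0.96 (mean -0.33 ± 0.22, adjusted p = 0.754). It was -0.60 without replicate 3 and -0.12 without replicate 4. GRB10, an adaptor that restrains signalling from the insulin and IGF1 receptors, had -0.20 ± 0.16 over 3 arrays (adjusted p = 0.796), and its size depended on the processing. In limma it was -0.69 without background correction (unadjusted p = 0.0201, adjusted p = 0.577), -0.68 with the processed ratio (unadjusted p = 0.0402, adjusted p = 0.617), -0.66 with the series table (unadjusted p = 0.0176, adjusted p = 0.620) and 0.098 with median centring. IRS1, a docking protein of the same receptors, had 0.089 ± 0.11 (0.31 with the processed ratio and with the series table) and was well above background in untreated cultures on 2 of 4 arrays. AKT1, a kinase downstream of the receptors, had -0.070 ± 0.17, and GHR, the growth hormone receptor, which drives IGF1 synthesis in liver, had 0.063 ± 0.13. The carrier subunit IGFALS, the PAPP-A inhibitor STC2, and the hormones GH1, INS and INSL3 did not rise well above background on any of the 4 arrays, in orexin B or untreated cultures.

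**Figure D4:**
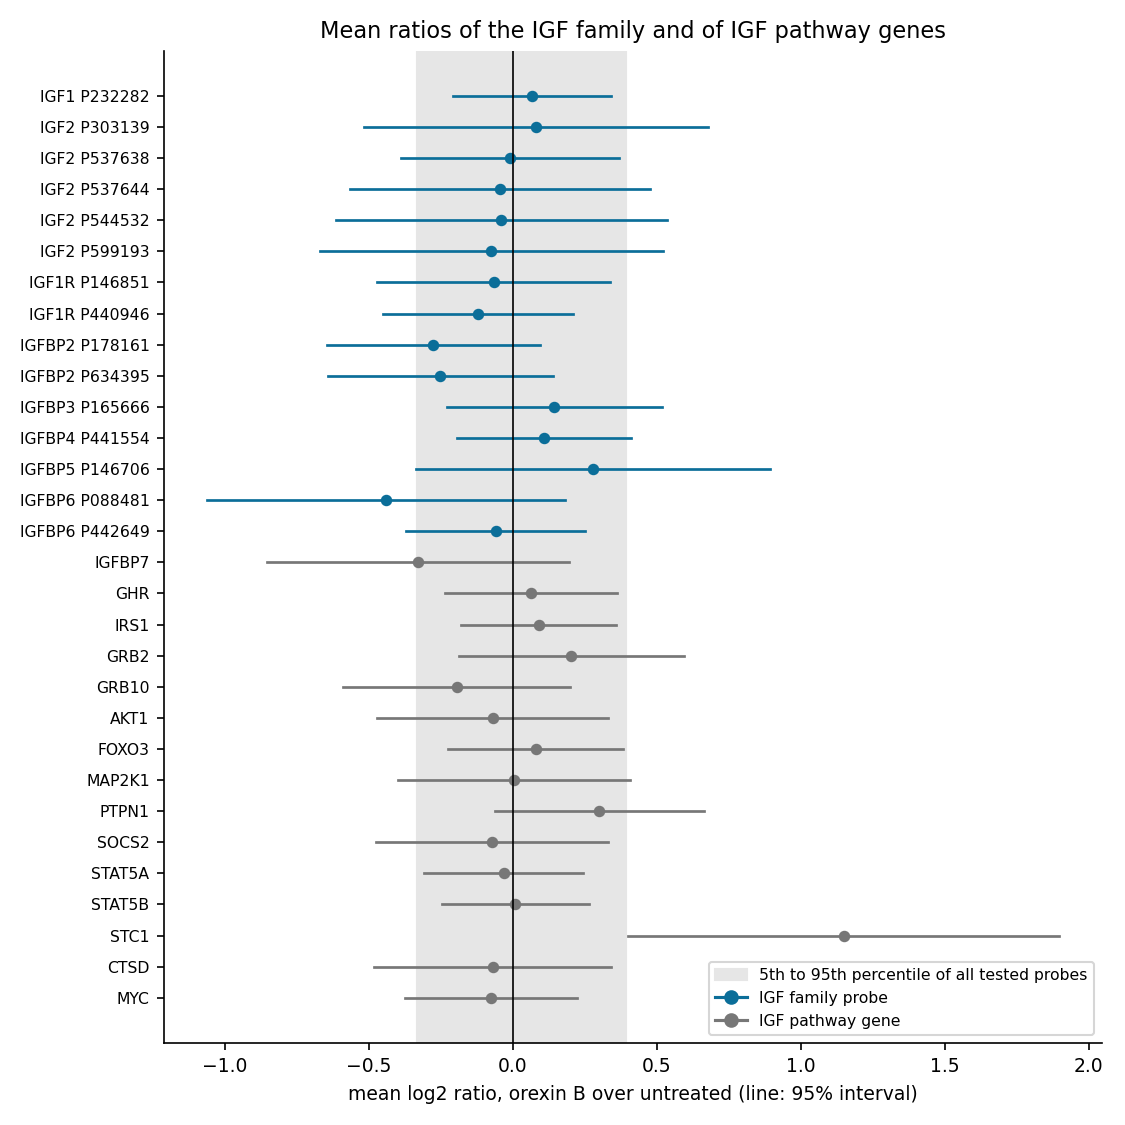
Mean log2 ratio of orexin B over untreated with its 95% interval for the 15 tested IGF family probes (blue) and the brightest probe of 15 tested pathway genes (grey); the shaded band runs from the 5th to the 95th percentile of all tested probes, -0.33 to 0.39. The intervals are not adjusted for the number of probes. Those of all 15 family probes include 0, and that of STC1, 0.40 to 1.90, does not (adjusted p = 0.596 in limma).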

How the data were processed

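The deposited scanner files hold intensity values, the median brightness of each spot and its local background in Cy3 and Cy5, and processed intensity values with a log10 ratio of red over green, which per the file headers came from version 10.7.3.1 of Agilent Feature Extraction. The deposited series table holds log2 ratios by the authors, without further centring (column medians -0.27, -0.082, -0.20 and -0.094). For probes spotted once, 100% of its values matched the log2 ratio of the processed signals within 0.01 once arrays 2 and 4 were turned. Probes with replicate spots were left out of that comparison. Each ratio's direction came from the dye fields of the labels; the labels' protocol text gives only Cy5 for orexin B.

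Background was corrected with normexp (offset 50) and each array normalized by loess, control spots at weight 0, in limma 3.58.1 (R 4.3.3). Marked outlier spots (31 to 138 per array) were left out. A probe was tested if well above background on all 4 arrays in either channel and unmarked on at least 3. Ratios were fitted with an intercept by lmFit and eBayes, two-sided, with Benjamini-Hochberg adjustment over 19879 probes; channel intensities were scaled between arrays by Aquantile. The Sscrofa11.1 gene table gave a symbol to 6700 probes through their RefSeq accession, versions ignored; 6599 of them had one other than a LOC number and were used as named. The files name no genome build. The fit was tested on simulated data. The family and lists were chosen with earlier results of these data known. All family probes were named whatever their values, with pathway genes at an unadjusted p under 0.05 and a fixed set of others; a further listed gene is not reported here. Figures used Python 3.11.15 and matplotlib 3.10.9.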

Additional observations from a re-analysis of the deposited data

Results flagged for a closer look

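Of 19 sets of 4 array ratios searched for 1 array standing apart, 2 were found, where chance gives about 1 in 20 sets. The IGF1R probe A_72_P146851 had a log2 ratio of -0.69 on array 2, against 0.13 to 0.15 on arrays 1, 3 and 4; the other IGF1R probe had -0.46 there. STC1 had a log2 ratio of 2.51 on array 2, against 0.52 to 0.79 on the other arrays.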

How the results depend on the processing

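No probe passed an adjusted p of 0.05 under any of the settings run with a test, including limma with all 4 arrays, which gave 1534 probes at an unadjusted p under 0.05. That unadjusted count was 177 with median centring in place of loess (172 higher and 5 lower, against 856 and 678), 2302 with no filter on dim probes, 2382 with dye orientation as a further term, 4280 with slide as a random block (array 1 was alone on its slide), and 726 to 1922 without 1 replicate. The slide block was fitted with a negative correlation, -0.26, between arrays of the same slide. The family had 0 probes at the unadjusted threshold, but 7 with Cy5 over Cy3 without turning, 1 with the dye term, 2 with the slide block (IGFBP6 and IGFBP2), and 0 to 1 without 1 replicate. Pathway genes numbered 1, but 2 without background correction, with the series table and with the processed ratio of the scanner software (GRB10 in each, at -0.66 to -0.69), 0 with the unmoderated test and 1 to 3 without 1 replicate (3 without replicate 2: STC1, GRB2 and PTPN1). Of 123 values of family genes under alternatives, 114 kept their direction. Part of that count was fixed in advance. Other brightness filters, the dye term and the unmoderated test leave a mean over 4 arrays unchanged, as does keeping marked spots where none was marked. Without turning, IGF1 was -0.036, IGF1R 0.010, IGFBP2 0.098, IGFBP4 -0.025, IGFBP6 0.62, IGFBP7 0.37, GRB10 0.012, AKT1 0.19 and STC1 -0.37. IGF2 was -0.064 with the slide block and -0.018 as the mean of its probes. Without 1 replicate IGF2 ran from -0.24 to 0.31, IGFBP5 from -0.013 to 0.57, GHR from -0.013 to 0.13 and AKT1 from -0.18 to 0.12. GRB10 was 0.098 with median centring, and GHR was -0.029 with the series table and with the processed ratio. The causes were not tested. Each array's ratio already pairs an orexin B culture with its untreated partner, so a further block by replicate could not be fitted. Dim signal limits IGF2R and IGFBP4.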
